A study of Mus musculus with 55 samples.

Results

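Expression of 10 genes of antigen presentation and the interferon response was examined in the dorsal hippocampus of Cnih3 knock-out (KO) and wild-type (WT) mice. The genes were taken by symbol from the table of gene counts, as 10 of its 55487 genes, and all 10 passed the filter on low counts that left 16168 genes to be tested. 6 belong to the major histocompatibility complex (MHC) class I pathway (H2-K1, H2-D1, B2m, Tap1, Psmb8 and Psmb9) and 4 are interferon-stimulated genes (Ifit3, Isg15, Irf7 and Bst2). RNA from 1 dorsal hippocampus of each of 55 mice was sequenced, and every library came from a different mouse. WT mice comprised 5 males and 22 females, of which 4 were at metestrus, 6 at diestrus, 5 at proestrus and 7 at estrus. KO mice numbered 7 males and 5, 6, 4 and 6 females in the same order of stages.

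All mice were on a C57/BL6j background and between 10.86 and 23.71 weeks old, and stage was read from vaginal cytology. KO mice came from a single line that lacks exon 4 of Cnih3, an auxiliary subunit gene of AMPA receptors. Every KO mouse came from breeding of the Cnih3 line, as did 11 of the 27 WT mice, and the other 16 WT mice had parents without the mutation. Genotype and parentage are therefore partly confounded. Age was also uneven between groups, with medians from 12.43 weeks in KO diestrus to 20.29 weeks in WT males.

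Nearly all cells display peptides of their own proteins on MHC class I molecules. The immunoproteasome, of which Psmb8 and Psmb9 encode catalytic subunits, cuts proteins into peptides, and the transporter subunit encoded by Tap1 helps to pump them into the endoplasmic reticulum. There they are loaded onto a heavy chain, such as those encoded by H2-K1 and H2-D1, which is held together with beta-2-microglobulin, the product of B2m. Interferons raise the transcription of all of these genes through STAT and IRF factors, and also that of antiviral effectors such as Ifit3, which binds viral RNA complexes, Isg15, a ubiquitin-like modifier, and Bst2, which tethers budding virus. Irf7 encodes the transcription factor that amplifies type I interferon production. In the healthy brain the pathway is most active in microglia and endothelium, and neurons use class I molecules in synaptic remodelling.

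Promoter sequences are shown because several of the 10 genes share known elements of the interferon and NF-kB responses. Whether these elements bear on the levels of the genes was not tested. The sequences are those of RefSeq on GRCm38.p6, from 250 bases before to 50 bases after a transcription start, and all 10 genes were matched, H2-K1 with 2 starts. The core of the interferon-stimulated response element was searched on both strands as GAAA, any 2 bases and GAAA again, and 3.44% of the 32851 promoters in the table hold it. It was present in B2m, Bst2, Ifit3 and Isg15, with 2 overlapping copies in Bst2, 2 separate ones in Ifit3 and 3 overlapping ones in Isg15. Capitals in the following 4 lines mark the element, and each line is the strand of the gene, 5′ to 3′. In Ifit3 both copies lie on the opposite strand and are read here as their reverse complement.
B2m, chr2:122147533-122147572, plus strand: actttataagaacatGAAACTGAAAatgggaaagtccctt
Bst2, chr8:71537572-71537617, minus strand: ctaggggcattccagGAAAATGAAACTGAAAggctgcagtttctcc
Ifit3, chr19:34583358-34583431, plus strand: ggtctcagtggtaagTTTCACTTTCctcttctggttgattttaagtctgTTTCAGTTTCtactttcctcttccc
Isg15, chr4:156200860-156200911, minus strand: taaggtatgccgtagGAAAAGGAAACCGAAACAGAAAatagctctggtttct

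Both class I heavy chain genes hold an NF-kB element of 11 letters, also searched on both strands, which 10 of the 32851 promoters contain (0.0304%). It lies 125 or 111 bases before the H2-K1 starts and 171 bases before the H2-D1 start. Capitals in the next lines are the letters searched, and 1 of the 41 bases printed differs between the genes.
H2-K1, chr17:34000433-34000473, minus strand: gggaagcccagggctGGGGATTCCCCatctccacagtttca
H2-D1, chr17:35262908-35262948, plus strand: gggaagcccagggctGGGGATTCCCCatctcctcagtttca
The gamma-activated site TTCNNNGAA, present in 8.3% of promoters, was found in Bst2, where it overlaps the first interferon element, and in Psmb8. None of the 3 motifs was found in the Irf7, Psmb9 and Tap1 windows, which says only that these letters do not occur there.

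5 of the class I genes lie on chromosome 17 (GRCm38, GENCODE M21). H2-K1 spans 33996017 to 34000347 on the minus strand and H2-D1 spans 35262730 to 35267499 on the plus strand. Psmb9 (34181987 to 34187764, minus), Tap1 (34187553 to 34197225, plus) and Psmb8 (34197721 to 34201454, plus) are neighbours between them. The promoter windows above were set by RefSeq starts, and those of H2-D1, Psmb8 and Psmb9 lie inside these GENCODE spans. Psmb9 and Tap1 overlap head to head, an antisense gene overlaps Psmb8, Phrf1 overlaps Irf7, and Patl2 overlaps B2m. The library kit does not mark strand, and reads that fit 2 genes were dropped by the authors, so the counts of these genes and of the closely similar H2-K1 and H2-D1 are uncertain to that extent.

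Total counts per library ranged from 25881295 to 63547098. Cnih3 counts include exons that KO mice retain, and the level was 21.6 to 62.5 CPM (counts scaled to the size of the library) in WT and 21.6 to 47.8 CPM in KO mice, with a log2 fold change of -0.34 over all 5 groups (limma, false discovery rate [FDR] = 0.00692). The count of the whole gene is thus a weak check of genotype. Neuronal markers summed to 7200 to 11700 CPM in every library. Choroid plexus markers, by contrast, summed to between 22.6 and 2240 CPM over the 55 libraries, and 13 libraries lay above 500 CPM. WT proestrus mouse 5, KO male mouse 6 and WT diestrus mouse 1 carried the lowest sample weights in the fit (0.194, 0.28 and 0.327, where the highest was 2.35). Markers of T and NK cells were close to the limit of detection, with Gzmb at 0 in 49 of 55 libraries and Cd3e at no more than 29 counts.

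Levels are given as CPM scaled by the trimmed mean of M values (TMM). Per kilobase of exon, B2m had the highest level, with a median over the 55 libraries of 102 CPM per kb. H2-D1 followed at 15.9 CPM per kb. Ifit3 (5.2), H2-K1 (5), Bst2 (4.73) and Isg15 (2.04 CPM per kb) came next. Psmb8 (0.952), Psmb9 (0.754), Irf7 (0.723) and Tap1 (0.29 CPM per kb) were the lowest. Group medians of B2m, from 85.7 to 127 CPM per kb, and of H2-D1, from 11.7 to 18.8, overlapped those of no other gene, while those of Ifit3, H2-K1 and Bst2, between 3.64 and 6.6, overlapped one another. Depth limits the low genes most. Tap1 was represented by 32 to 152 counts per library and Isg15 by 9 to 174, the 9 counts of WT estrus mouse 5 having an exact 95% Poisson interval of 4.12 to 17.1. This interval covers counting error only.

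Within groups, the SD of log2 CPM was 0.25 for both H2-D1 and B2m, 0.3 for H2-K1, 0.36 for Psmb8 and 0.38 for Psmb9. It was wider for Ifit3 (0.42), Tap1 (0.45), Bst2 (0.46), Irf7 (0.53) and Isg15 (0.65). The strongest and the weakest of the 55 libraries differed 2.51-fold in B2m and 10.5-fold in Isg15.

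**Figure D1:**
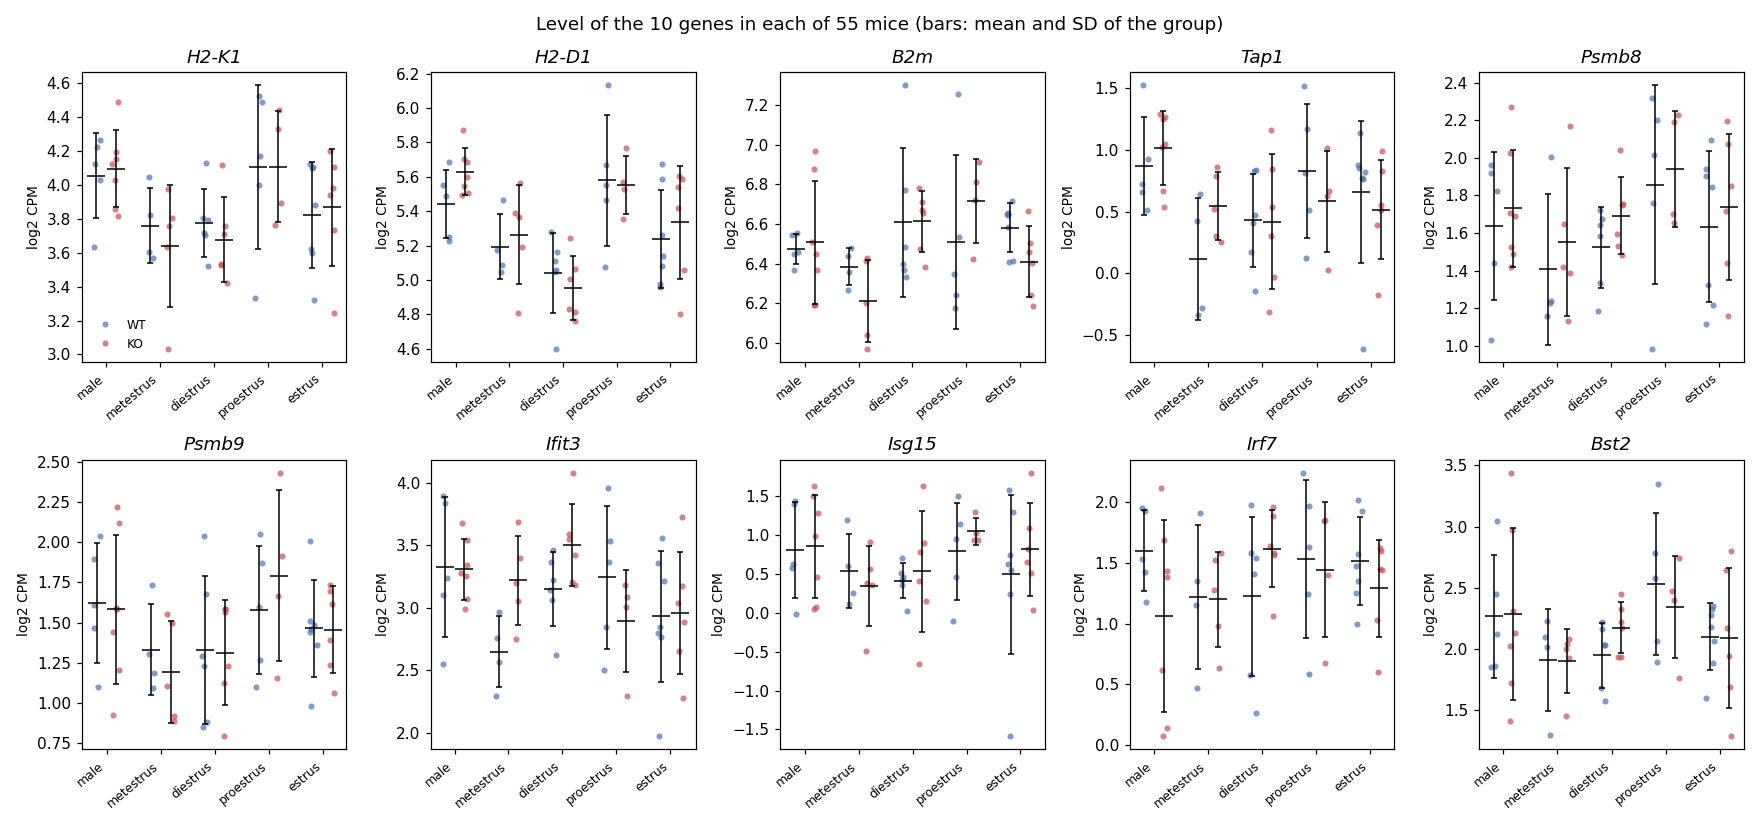
Level of each of the 10 genes (log2 CPM, vertical axis, its range set per gene) by group (horizontal axis), with WT mice in blue, KO mice in red, 1 point per mouse, and bars for the group mean and SD. WT and KO points overlap for every gene in every group, and H2-D1 has its lowest KO median, 30.3 CPM, in diestrus.

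No member differed between KO and WT mice past the threshold (limma, FDR below 0.05), in any group or on average. Across the 5 groups combined, the log2 fold changes ran from -0.17 for Irf7 to 0.02 for Ifit3, H2-D1 and Tap1. For the 3 members with the most counts the 95% confidence interval was narrow, from -0.14 to 0.08 for B2m, from -0.12 to 0.16 for H2-D1 and from -0.23 to 0.1 for H2-K1. The intervals of the low genes were wider, up to -0.39 to 0.23 for Isg15. 0 of 10 members were called, where 3.4% of all tested genes were. Over the 4 stages in females, 0 of 10 were called against 1.97% of all genes. The median of the members was -0.041 over the 5 groups and -0.038 over the 4 stages, with medians over all genes of -0.0029 and -0.0036. None of the members reached an unadjusted p below 0.05 in these 2 averages, and edgeR and DESeq2 also called 0.

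Taken group by group, limma called 0 of 10 members in males, where 0.00619% of all genes were called. Among females it called 0 at metestrus (0.0247% of all genes), diestrus (0%), proestrus (0.315%) and estrus (0.179%). At an unadjusted p below 0.05 there was 1 member in males, 1 at metestrus and 1 at proestrus, and none at the other stages. Counts by edgeR and by DESeq2 were 0 in each group, with 1 member at an unadjusted p below 0.05 in metestrus by either tool and none elsewhere. The share of all genes at that level in limma ranged from 5.23% in males to 13.7% in proestrus. Within single stages the intervals depended on the level of the gene. In diestrus they ran from -0.27 to 0.23 for B2m and from -0.46 to 0.19 for H2-D1, but from -0.69 to 0.45 for Tap1 and from -0.89 to 0.61 for Isg15.

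Irf7 in males had the largest difference of the 50 within-group values. WT males had 2.89, 3.81, 2.68, 3.88 and 2.26 CPM. KO males ranged from 1.05 to 4.34 CPM with a median of 2.61. Of the KO males 3 lay below all WT males, 1 lay above them and the rest lay among them. The log2 fold change was -0.83 ± 0.32 (SE), with an unadjusted p of 0.0125 and an FDR of 0.799. Without the 13 libraries high in choroid plexus markers, which left 3 WT and 4 KO males, it was -1.39 with an FDR of 0.00351 in limma. The KO males left out, at 3.22, 2.7 and 2.61 CPM, were those within the WT range. Those kept had 1.05, 1.54, 4.34 and 1.1 CPM, the 4.34 CPM being that of mouse 6, whose sample weight over all mice was 0.28. The share of all genes called in this refit is not given. With any 1 mouse left out, the log2 fold change of Irf7 lay between -1.07 and -0.49 and was never called.

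Ifit3 in metestrus was the second largest. It measured 4.91, 6.78, 7.83 and 5.92 CPM in WT mice. The KO mice had 8.32, 12.9, 6.73, 10.6 and 9.18 CPM, so that only 1 of the 5 fell into the WT range. KO exceeded WT by 0.52 ± 0.23 on the log2 scale, with an unadjusted p of 0.0308 and an FDR of 0.519. B2m in proestrus was the third member at an unadjusted p below 0.05. WT mice had 81.4, 75.6, 92.6, 72.4 and 153 CPM, and KO mice 113, 85.9, 120 and 105 CPM. WT proestrus mouse 5, the one at 153 CPM, had the lowest weight of all libraries. The KO minus WT difference was 0.27 ± 0.13 in log2 CPM with an FDR of 0.358. It was -0.05 without the libraries high in choroid plexus markers and -0.58 when only mice of Cnih3 breeding were compared, where that same mouse was the whole of the WT group.

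In mice of Cnih3 breeding alone B2m was lower in KO mice, with a log2 fold change of -0.28 over the 5 groups (95% interval -0.47 to -0.08, FDR = 0.0437) and of -0.33 over the 4 stages (-0.56 to -0.1, FDR = 0.0474). In that subset 14.6% and 12.9% of all genes were called, against 1 of 10 members in each average. Its WT side held 1 mouse each in metestrus, proestrus and estrus, and both WT mice above 150 CPM in B2m, diestrus mouse 4 (158 CPM) and proestrus mouse 5, were among its 11.

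**Figure D2:**
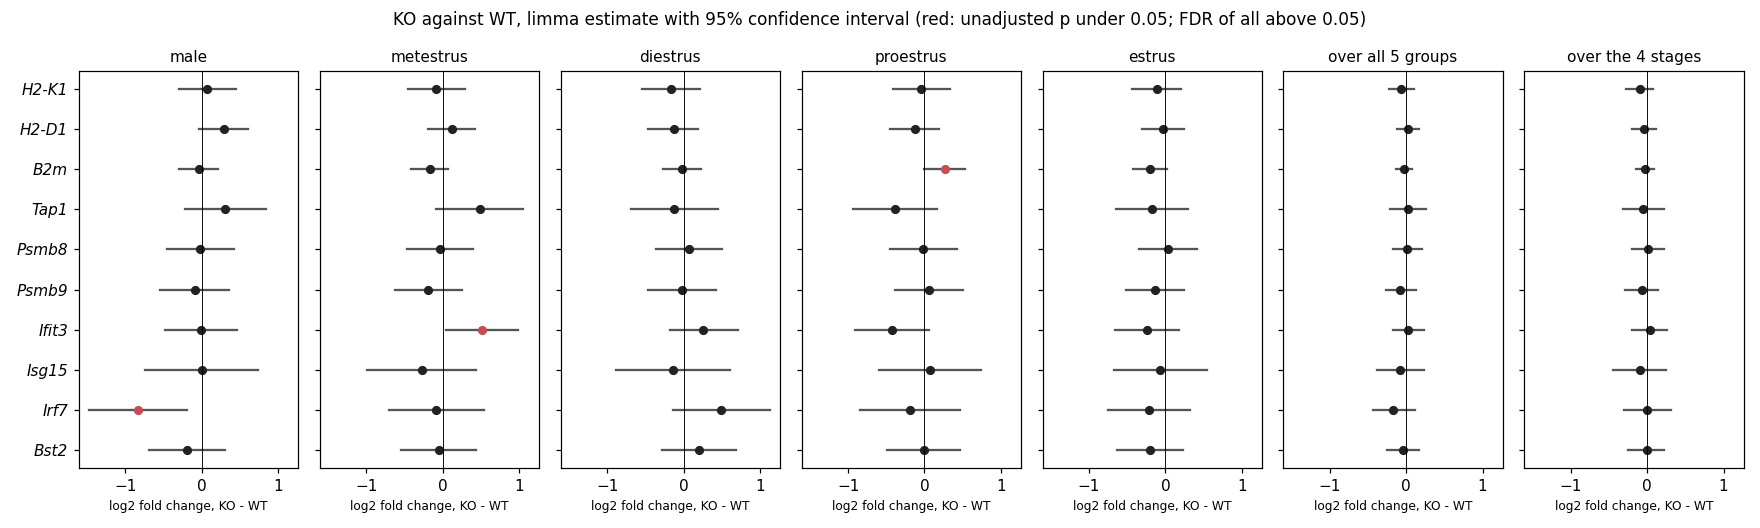
Log2 fold change of KO against WT (horizontal axis) for each gene (vertical axis) in each group and in the 2 averages, with 95% confidence intervals as lines and estimates as points, red where the unadjusted p is below 0.05. All but 3 of the within-group intervals include 0, and those of the averages are the narrowest.

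Of 25 other antigen presentation genes 21 were tested, and 1 was called over the 5 groups, where 3.4% of all genes were. This was Psmb10, the third inducible catalytic subunit of the immunoproteasome, which was higher in KO mice (log2 fold change 0.23 ± 0.05, FDR = 0.00778), and also over the 4 stages (0.24 ± 0.06, FDR = 0.0225), where 1.97% of all genes were called. The other inducible subunits, Psmb8 and Psmb9, had values of 0.01 and -0.08 over the 5 groups. Of 41 other interferon-stimulated genes 31 were tested, and only Irgm1, an interferon-inducible GTPase, was called over the 5 groups (-0.25 ± 0.06, FDR = 0.012). Among 22 interferon ligands, receptors and signalling genes 18 were tested and limma called 0 in either average, with 1 and 0 at an unadjusted p below 0.05. The ligand genes Ifnb1 and Ifng never exceeded 4 and 7 counts in a library and were not tested. The 3 constitutive catalytic subunits of the proteasome were tested, and 0 were called or reached an unadjusted p below 0.05 in either average.

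More members were called between stages than between genotypes, and the share of all genes called was mostly higher between stages too. KO against WT called 0% to 0.315% of all genes within a group and 3.4% over the 5 groups. Stage pairs called 0% to 22.1% of all genes in WT and 0% to 34.3% in KO. H2-D1 and H2-K1 were lower in diestrus than in proestrus in KO females, and H2-D1 was also lower in WT females. B2m was lower in KO metestrus than in KO diestrus or proestrus. Ifit3 was higher in KO diestrus than in KO estrus. Tap1, Psmb8, Psmb9, Isg15, Irf7 and Bst2 were not called between any 2 stages. Within a genotype the 6 pairs share mice, so they are not independent of one another.

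H2-D1, a classical class I heavy chain, ranged from 27.1 to 37.9 CPM in the 6 KO diestrus mice with a median of 30.3. The 4 KO proestrus mice had 47.6, 46.2, 54.4 and 40.9 CPM, so every one lay above every diestrus mouse. The log2 fold change, diestrus against proestrus, was -0.67 ± 0.15 (FDR = 0.000509). WT diestrus mice ranged from 24.3 to 38.9 CPM with a median of 33.9, and WT proestrus mice had 50.9, 44.2, 70.2, 33.8 and 46.9 CPM. Here the groups overlapped through proestrus mouse 4. The difference was again -0.67 (± 0.17, FDR = 0.0103), but it lost its call without any 1 of WT diestrus mice 3, 4 and 5 or WT proestrus mouse 3 (FDR from 0.0906 to 0.214), and it was -0.13 (FDR = 0.927) without the libraries high in choroid plexus markers, which left 2 WT proestrus mice. The KO difference was called with each mouse left out (FDR at most 0.00579) and without the choroid plexus libraries (-0.72, FDR = 0.0101), but not among mice of 14 weeks and over (-0.64, FDR = 0.642), where 2 diestrus and 1 proestrus mice were left.

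H2-K1, the other heavy chain, showed the same order in KO mice at a smaller size. Its range was 10.7 to 17.3 CPM in diestrus with a median of 12.3. In proestrus the values were 20.1, 13.6, 21.7 and 14.9 CPM, and the groups overlapped through KO diestrus mouse 1, at 17.3 CPM. Diestrus against proestrus gave -0.48 ± 0.18 on the log2 scale (FDR = 0.029). In 5 of 10 fits with 1 mouse left out it was not called, namely without KO diestrus mouse 2, 3 or 5 or KO proestrus mouse 1 or 3 (FDR from 0.075 to 0.136), and it was also lost without the choroid plexus libraries (-0.38, FDR = 0.254). In WT mice the same comparison gave -0.34 for H2-K1 and was not called.

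For KO diestrus against proestrus, 2 of 10 members were called, both lower in diestrus, where 34.3% of all genes were called. The groups of mice did not overlap in H2-D1, and in Ifit3 the lowest diestrus and the highest proestrus mouse met at 9.08 CPM and were apart only before rounding. By unrounded values 2 of 10 members thus had no overlap, where 6.88% of all genes had none in either direction. In WT diestrus against proestrus 1 of 10 was called, against 9.66% of all genes. The share of members called was below that of all genes in KO and near it in WT. Mature oligodendrocyte markers moved with H2-D1, with 7 of 10 lower in KO diestrus than in KO proestrus (summed levels 3220 to 5130 and 4380 to 6770 CPM) and 8 of 10 lower in WT (3330 to 5780 and 4150 to 7320 CPM). Microglial markers were lower for 7 of 12 in KO diestrus (251 to 275 against 271 to 401 CPM) and for 1 of 12 in WT (237 to 333 against 260 to 348 CPM). Red blood cell markers were lower for 4 of 5 in KO diestrus and for 1 of 5 in WT. Of 7 neuronal markers 3 were higher and 2 lower in KO diestrus, and 2 were higher and 0 lower in WT. Meningeal markers were lower for 2 of 6 and endothelial markers for 1 of 10 in KO diestrus, with 0 of either called in WT. The part of all these cell types in the H2-D1 and H2-K1 differences was not tested. In bulk tissue fewer cells of a type and less RNA per cell cannot be told apart.

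B2m, the invariant light chain, had values of 73.7, 85.1, 62.8, 86.1 and 65.9 CPM in KO metestrus. In KO diestrus it ranged from 83.4 to 110 CPM, with 5 of the 6 mice above every metestrus mouse, and in KO proestrus it had 113, 85.9, 120 and 105 CPM. KO metestrus mice 2 and 4 reached into the range of the diestrus group, and mouse 4 just into that of the proestrus group. On the log2 scale the difference was -0.45 ± 0.12 for metestrus against diestrus (FDR = 0.00785) and -0.45 ± 0.13 for metestrus against proestrus (FDR = 0.0366). The first was called in all 11 fits with 1 mouse left out and the second in 3 of 9, with FDR up to 0.152. Without KO metestrus mouse 1, 3 or 5 or KO proestrus mouse 1, 3 or 4 the second was not called, nor was it without the choroid plexus libraries (-0.45, FDR = 0.166). In all, 1 of 10 members was called in KO metestrus against diestrus, where 10.4% of all genes were, and 1 of 10 in KO metestrus against proestrus, where 4.37% were. Isg15 did not overlap in the latter pair, with 1.28, 1.88, 1.3, 1.47 and 0.711 CPM in metestrus and 1.9, 2.45, 2.03 and 1.92 CPM in proestrus, a separation that 8.57% of all genes had in either direction. Its log2 fold change of -0.75 ± 0.35 was not called (FDR = 0.179).

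Endothelial markers were lower in KO metestrus for 4 of 10 against diestrus and for 3 of 10 against proestrus, with summed levels of 55.4 to 104 CPM in metestrus, 75.4 to 121 CPM in diestrus and 78.1 to 105 CPM in proestrus. Of the 12 microglial markers 4 were higher and 1, the complement gene C1qb, lower in KO metestrus than in diestrus, and 8 of 10 oligodendrocyte and 4 of 5 red blood cell markers were higher. Their part in the B2m difference was not tested.

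Ifit3 was called in a single pair, KO diestrus against estrus. It ranged from 9.08 to 16.9 CPM in diestrus with a median of 11.2, and from 4.84 to 13.2 CPM in estrus with a median of 7.8. In proestrus it had 8.06, 8.49, 9.08 and 4.89 CPM. KO estrus mouse 1, at 13.2 CPM, lay among the diestrus mice, and KO estrus mouse 4 came close to them at 9.05 CPM. Diestrus against estrus gave a log2 fold change of 0.7 ± 0.21 (FDR = 0.0108), and it was 0.51 (FDR = 0.0749) without KO estrus mouse 3. Diestrus against proestrus gave 0.46 ± 0.22 (FDR = 0.0972). Of 10 members 1 was called in KO diestrus against estrus, where 30.7% of all genes were. Its neighbour Ifit3b, a close paralog that may share reads with it, was higher as well (0.77 ± 0.2, FDR = 0.00411). 2 of 10 endothelial markers were higher and 1 was lower in this comparison, and 6 of 10 oligodendrocyte markers were lower. Their part in the Ifit3 difference was not tested.

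The remaining pairs gave 0 of 10 members in limma. In WT these were metestrus against diestrus (7.24% of all genes called), metestrus against proestrus (0.767%), metestrus against estrus (0%), diestrus against estrus (22.1%) and proestrus against estrus (6.82%). In KO they were metestrus against estrus (0%) and proestrus against estrus (0.507%). Unadjusted p values below 0.05 were found for 2, 4, 1, 0 and 2 members in these WT pairs and for 0 and 3 in these KO pairs, and edgeR and DESeq2 called 0 in each, DESeq2 giving no adjusted p for 4 members in KO proestrus against estrus. H2-D1 missed the threshold narrowly in WT proestrus against estrus (0.43 ± 0.14, FDR = 0.0505). It was called without WT proestrus mouse 4 or WT estrus mouse 4 or 7 (FDR from 0.0119 to 0.028). The call was also made with age in the model (0.52, FDR = 0.00825) and with RLE factors (0.43, FDR = 0.048). Mice of 14 weeks and over lack 2 of the 5 WT proestrus mice, mouse 2 and mouse 4. Mouse 4 had the lowest choroid plexus markers of that group, at 52.3 CPM. Those left were mice 1 and 3, at 1400 and 1440 CPM of these markers, and mouse 5, of the lowest sample weight (0.194). In mice of 14 weeks and over H2-D1 (0.73, FDR = 0.000523), H2-K1 (0.56, FDR = 0.0119) and Ifit3 (0.78, FDR = 0.0122) were called in this pair. In estrus H2-D1 ranged from 31.1 to 51 CPM in the 7 WT mice, with a median of 35.2. They overlapped with the proestrus mice. WT metestrus against proestrus gave negative values for all 10 members, with a median log2 fold change of -0.39, where the median of all genes was 0.013. The lowest were Tap1 (-0.87 ± 0.28, FDR = 0.115), Ifit3 (-0.77 ± 0.24, FDR = 0.101) and H2-D1 (-0.52 ± 0.16, FDR = 0.086). All of these were called without WT proestrus mouse 4 (FDR from 0.0166 to 0.0207), and H2-D1 and Tap1 also without WT metestrus mouse 4 (0.0438 and 0.0278). In mice of 14 weeks and over H2-D1 (-0.77, FDR = 0.00577), H2-K1 (-0.64, FDR = 0.0334) and Ifit3 (-1.03, FDR = 0.0179) were called. For mice of this age the share of all genes called is not given in either pair. Markers of other cell types moved with these values. The choroid plexus markers' summed level was 32.7 to 83.4 CPM in WT metestrus, 52.3 to 1440 CPM in WT proestrus and 22.6 to 121 CPM in WT estrus, and 8 of 9 were called higher in proestrus than in estrus, with 0 of 9 called but all 9 at an unadjusted p below 0.05 in metestrus against proestrus (limma). Of the oligodendrocyte markers 2 of 10 were called higher in proestrus than in estrus and 1 of 10 lower in metestrus than in proestrus, with 7 of 10 at an unadjusted p below 0.05 in the latter pair. Of the meningeal markers 2 of 6 were called higher in proestrus than in estrus, and 0 were called in metestrus against proestrus, with 4 of 6 at an unadjusted p below 0.05. Their part in these differences was not tested.

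Other values near the threshold changed side with 1 mouse left out. B2m was called in WT metestrus against diestrus without WT diestrus mouse 1, 2 or 6 (-0.44 to -0.46), and so it was in WT diestrus against proestrus (0.4 to 0.45). Ifit3 was called in WT metestrus against diestrus without WT diestrus mouse 1 (-0.62, FDR = 0.0462). In KO mice H2-D1 was called in metestrus against diestrus without metestrus mouse 2 or 3 or diestrus mouse 6 (0.44 to 0.56), and in diestrus against estrus without estrus mouse 3 or 5 (-0.53 and -0.4). B2m was called there without diestrus mouse 1 or 6 or estrus mouse 2 or 6 (0.3 to 0.37). Isg15 was called in KO diestrus against proestrus without diestrus mouse 1, 4 or 6 (-0.88 to -0.98).

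Of the 8 calls made by limma with sample weights between stages or sexes, 1 was also made by edgeR, by DESeq2 and by limma without sample weights, that of H2-D1 in KO diestrus against proestrus (FDR = 0.0186, 0.00812 and 0.0177). For H2-D1 in WT diestrus against proestrus these tests gave an FDR of 0.138, 0.0663 and 0.121. For B2m in KO metestrus against diestrus they gave 0.588, 0.443 and 0.435, and for Ifit3 in KO diestrus against estrus 0.216, 0.18 and 0.159. The direction was the same in each.

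**Figure D3:**
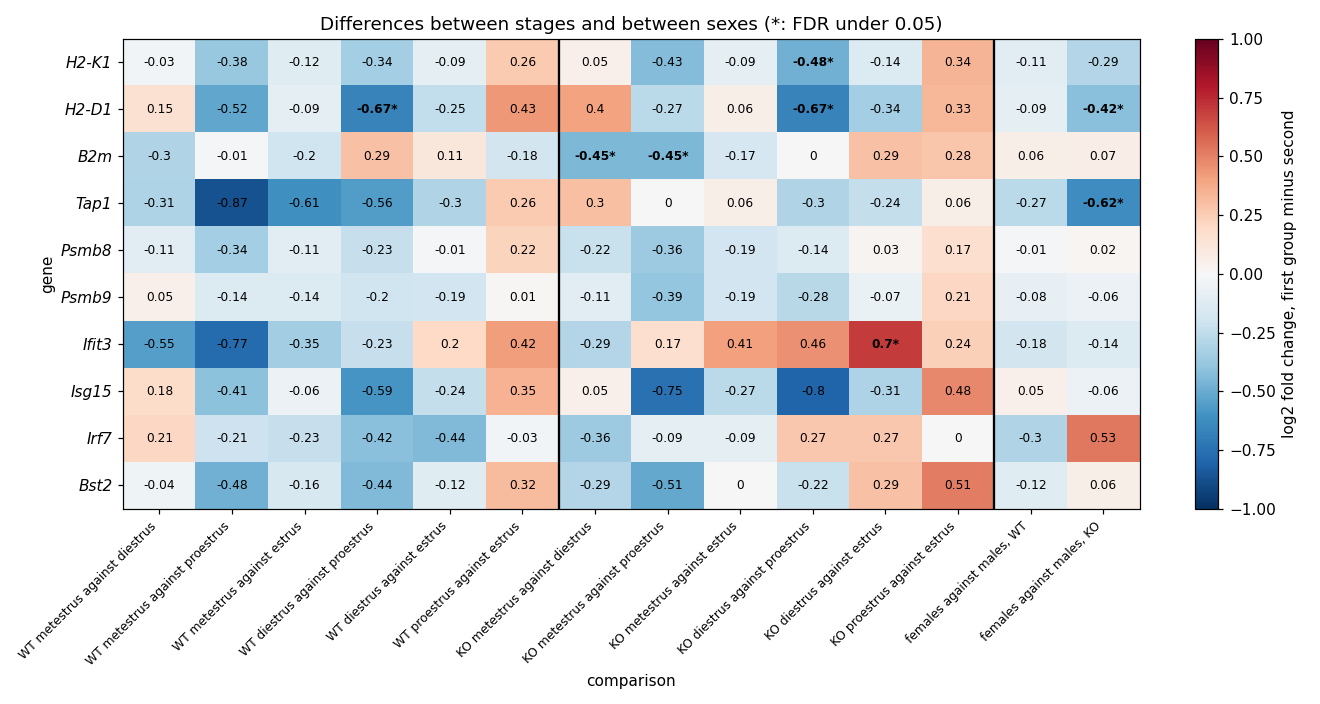
Log2 fold changes of the 10 genes (vertical axis) in the 6 stage pairs of each genotype and in females against males (horizontal axis), in colour and as numbers, first group minus second, with an asterisk where the FDR is below 0.05. Asterisks mark H2-D1 in both diestrus against proestrus columns and the other called values lie in KO columns.

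Other genes of the pathway were counted over whole lists. In KO diestrus against proestrus 9 of 21 antigen presentation genes were lower and 0 higher, with a median log2 fold change of -0.53. Among the lower ones were Calr, a chaperone of class I loading (-0.8 ± 0.12, FDR = 2.11e-06), Tapbp, which bridges the heavy chain to the transporter (-0.54 ± 0.11, FDR = 0.000243), and the lysosomal protease gene Ctss (-0.6 ± 0.14, FDR = 0.00101). 6 of 31 other interferon-stimulated genes were higher and 0 lower, led by Eif2ak2, the kinase activated by double-stranded RNA (0.83 ± 0.2, FDR = 0.00111). 4 of 18 signalling genes were lower. In this comparison 34.3% of all genes were called.

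In WT diestrus against proestrus, where 9.66% of all genes were called, 3 of 21 antigen presentation genes were lower, Tapbp (-0.59 ± 0.13, FDR = 0.00569), the disulfide isomerase gene Pdia3 (-1.07 ± 0.27, FDR = 0.0118) and Tap2, the partner of Tap1 (-0.76 ± 0.25, FDR = 0.0429), and 1 was higher, Psmb10 (0.43 ± 0.13, FDR = 0.0332). Of 18 signalling genes 2 were lower and 0 higher. These were the subunits of the type I interferon receptor, Ifnar1 (-0.54 ± 0.16) and Ifnar2 (-1.2 ± 0.32). Of the 31 other interferon-stimulated genes limma called 0, with 1 at an unadjusted p below 0.05.

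In diestrus against estrus the chaperone genes Calr and Canx were lower in WT (-0.55 and -0.46) and in KO (-0.66 and -0.42), and so was Ifnar1 (-0.53 and -0.65). Psmb10 was higher in WT (0.44) and KO (0.33). Of the 3 constitutive catalytic subunits, Psmb5 (0.37) and Psmb7 (0.33) were also called higher in WT, and Psmb7 (0.27) in KO. In all, 4 of 21 antigen presentation genes were lower and 3 higher in the WT pair, and 5 were lower and 2 higher in the KO pair, where 22.1% and 30.7% of all genes were called. In metestrus against diestrus, with 7.24% of all genes called in WT and 10.4% in KO, 3 were higher in each genotype, and these were Calr, Canx and Pdia3 in both, by 0.39 to 0.87. Psmb10 was lower there in WT (-0.4 ± 0.13, FDR = 0.0479). Further called genes were Tap2, lower in WT metestrus than proestrus (-0.94 ± 0.24, FDR = 0.0363), Ifnar2 and the class II chaperone subunit H2-DMb1, higher in WT proestrus than estrus (0.79 and 0.7), Ifnar1, higher in KO metestrus than diestrus (0.41), and the kinase gene Jak1, higher in KO metestrus than proestrus (0.29).

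Whether the stage differences themselves differed between genotypes was tested as an interaction. None of the 10 members was called in any of the 6 interactions (limma), nor was any gene, with 0% called for metestrus against diestrus, metestrus against proestrus, metestrus against estrus, diestrus against proestrus, diestrus against estrus and proestrus against estrus. edgeR and DESeq2 called 0 members too. At an unadjusted p below 0.05 there were 0, 3, 1, 1, 0 and 1 members in that order. The smallest of these was Ifit3 for metestrus against proestrus, where the KO difference exceeded the WT difference by 0.94 ± 0.34 (unadjusted p = 0.00702, FDR = 0.195). For H2-D1 in diestrus against proestrus the KO and WT differences were both -0.67, with a 95% interval of -0.46 to 0.46 for their difference.

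Females were then compared with males as the mean of the 4 stages. In KO mice 2 of 10 members were called, H2-D1 and Tap1, both lower in females, where 5.93% of all genes were called. KO males had 45.1 to 58.6 CPM of H2-D1 with a median of 48.6, and the medians of the KO female groups were 41.2, 30.3, 46.9 and 44.7 CPM from metestrus to estrus. All 7 males lay above all 6 diestrus females, while males and the other 3 female groups overlapped. The share of all genes with such a separation was not counted for this pair, so it is not shown to be particular to H2-D1. Females against males gave -0.42 ± 0.1 on the log2 scale (FDR = 0.00816). Tap1, the transporter subunit, was at 1.45 to 2.45 CPM in KO males with a median of 2.07. Its medians in KO females were 1.43, 1.34, 1.57 and 1.45 CPM in the same order. Males and females overlapped in every stage, with a log2 fold change of -0.62 ± 0.16 (FDR = 0.0164).

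Neither call held with age in the model (H2-D1 -0.22, FDR = 0.396, and Tap1 -0.4, FDR = 0.365), nor in edgeR (FDR = 0.122 and 0.241) or DESeq2 (0.0861 and 0.215). KO males were at least 18.29 weeks old, and 10 of the 21 KO females were under 14 weeks. H2-D1 also lost its call without KO male mouse 7 (FDR = 0.118), and Tap1 without KO male mouse 5 or 7 (0.0707 and 0.165), while Irf7 was called without KO male mouse 1 (0.77, FDR = 0.0382). 3 of 10 oligodendrocyte markers and 2 of 12 microglial markers were lower in KO females, and their part was not tested. In WT mice 0 of 10 members were called, against 0.0309% of all genes, with 0 members at an unadjusted p below 0.05 and 0 called by edgeR and DESeq2. H2-D1 and Tap1 gave -0.09 and -0.27 there. The sex by genotype interaction called 0 members and 0% of all genes in limma, and 0 members in edgeR and DESeq2, with 1 member, Irf7, at an unadjusted p below 0.05 (0.83 ± 0.36, FDR = 1).

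Age itself was estimated as a slope within groups. The slope was positive for 9 of the 10 members and -0.00593 per week on the log2 scale for B2m, but 0 were called (limma, 4 at an unadjusted p below 0.05) where 0.0804% of all genes were. H2-D1 had the smallest p, with 0.0467 ± 0.013 per week (unadjusted p = 0.000735, FDR = 0.182). Bst2 (0.0535 ± 0.0205), Psmb8 (0.0407 ± 0.0189) and Tap1 (0.0496 ± 0.0234) followed, each with an unadjusted p below 0.05. The difference in H2-D1 between KO diestrus and proestrus, groups with median ages of 12.43 and 13.285 weeks, was called with age in the model (-0.65, FDR = 0.0009), as were those in H2-D1 between WT diestrus and proestrus (-0.59, FDR = 0.0203) and in Ifit3 between KO diestrus and estrus (0.82, FDR = 0.0108). The other 3 stage calls were lost, that of B2m in KO metestrus against diestrus (-0.42, FDR = 0.0919) and against proestrus (-0.42, FDR = 0.054) and that of H2-K1 in KO diestrus against proestrus (-0.46, FDR = 0.0553). Other values were newly called with age in the model, a fit for which the share of all genes called between stages is not given. H2-D1 was lower in metestrus than in proestrus in WT (-0.57, FDR = 0.0316) and in KO (-0.49, FDR = 0.0404). It was higher in proestrus than in estrus in WT (0.52, FDR = 0.00825) and in KO (0.53, FDR = 0.0333). Bst2 was lower in KO metestrus than in KO proestrus (-0.78, FDR = 0.0417).

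Between mice of the same group the members varied together to different degrees. With group means removed, the Pearson correlation over 55 libraries was positive for 43 of the 45 pairs, with a median of 0.389. It is a description, since libraries share depth and tissue composition. The highest was 0.744, between the heavy chain genes H2-K1 and H2-D1, whose close likeness makes their counts uncertain. B2m, whose product pairs with both, correlated at 0.485 with H2-K1 but at 0.219 with H2-D1, and at 0.551 with Bst2. Psmb8 and Psmb9, partners in one protease, reached 0.435. Tap1 stood apart, from -0.14 with B2m to 0.333 with H2-D1, and was at 0.0759 with Psmb9, with which it shares an upstream region. The interferon-stimulated members had a median of 0.416 among themselves, close to the 0.387 between them and the class I members. Pairs of the genes with an interferon element in the promoter ran from 0.126 (B2m and Ifit3) to 0.551 (B2m and Bst2). The part of promoter elements in the correlations was not tested.

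**Figure D4:**
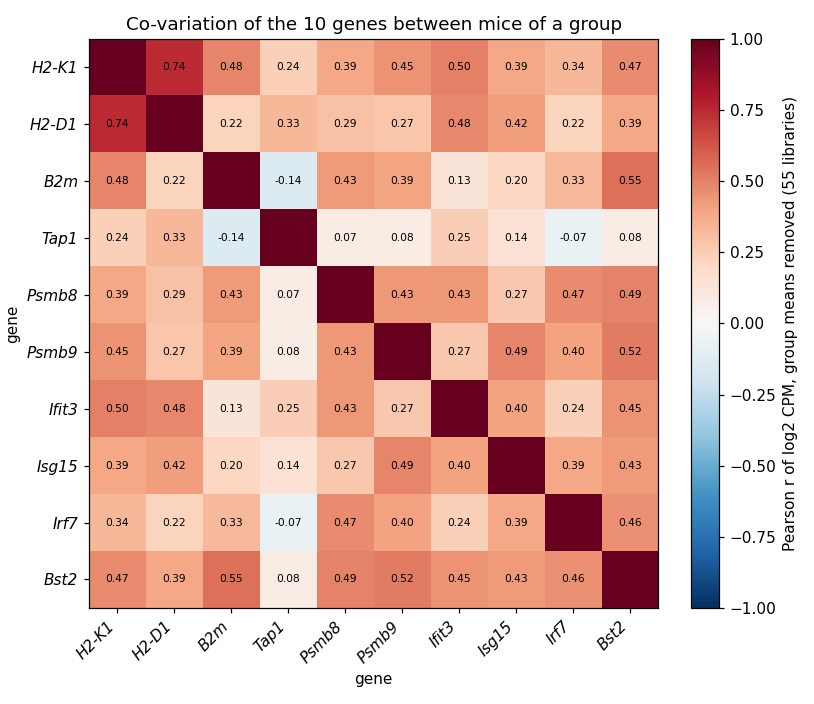
Pearson correlation of log2 CPM between each pair of genes over 55 libraries after removal of the group means, with genes on both axes and r in colour and as numbers. The H2-K1 and H2-D1 cell is the highest and the Tap1 row the palest.

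Outside the list, the genes most like the mean of the 6 class I members were Ifi27l2a (r = 0.763), the tetraspanin gene Cd63 (0.747), Ier3 (0.726), the antiviral gene Ifitm3 (0.68) and lysozyme, Lyz2 (0.675). Those most like the mean of the 4 interferon-stimulated members were Lgals1 (0.679), Lyz2 (0.672), Ifitm3 (0.668), S100a11 (0.664) and Ifi27l2a (0.642), 3 of them shared with the first list. Single members had their own closest genes. Ifit3 was nearest to Anxa5 (0.73) and Ifit3b (0.726), Irf7 to Usp18, the protease that removes Isg15 from proteins (0.577), and B2m to Spcs1 (0.858), a subunit of the signal peptidase. The mean of 12 microglial markers correlated at 0.582 with H2-K1, 0.576 with B2m and 0.475 with H2-D1, but at 0.145 with Ifit3 and 0.0952 with Tap1. Endothelial markers reached 0.575 with H2-K1 and 0.553 with Isg15. Choroid plexus markers were highest with Psmb8 (0.404) and Bst2 (0.393), and neuronal markers lowest with Ifit3 (-0.405). Meningeal markers were highest with Ifit3 (0.421) and H2-K1 (0.41), and oligodendrocyte markers with H2-D1 (0.431).

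Transcript-level estimates by the authors assigned a median of 89.4% of H2-D1 counts to 1 protein-coding transcript, with a range of 80.4 to 96.3% over libraries, and 10.5% to a second one. For Psmb8 the main protein-coding transcript took a median of 43.5% and a transcript with a retained intron took 34.8%, which ranged from 0 to 70%. B2m, Ifit3 and Isg15 have a single transcript each in the table. The table holds 14 of the 16 transcripts annotated for H2-K1, 6 of 7 for Tap1 and 12 of 13 for Irf7, so summed transcript counts of these genes may be incomplete.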

How the data were processed

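RNA of 55 mouse dorsal hippocampi was purified from the supernatant of an NP-40 lysate and made into cDNA with the SMARTer Ultra Low kit, which does not mark strand. The authors aligned reads to GRCm38 with STAR 2.7.9a and deposited raw counts per gene of uniquely aligned reads from featureCounts 2.0.3. They also deposited estimated counts per transcript from Salmon 1.5.2, used here for transcript shares and, summed and rounded per gene, as an alternative, and log2 CPM values, which served to check the scaling. The other CPM tables were not used, nor was 1 column that matches no mouse in the sample list. 287 repeated lines were removed. Groups and ages came from the labels, and parentage from the study's sample table.

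Following the study's methods, a gene was tested if it exceeded 1 CPM in 10 or more libraries and was not 1 of 5 ribosomal genes. In R 4.3.3 the counts were scaled by TMM (edgeR 4.0.16) and fitted by voomWithQualityWeights (limma 3.58.1) with a mean for each of 10 groups. P-values were two-sided and adjusted by Benjamini and Hochberg over 16168 genes in each comparison. Fold changes come from the weighted fit, ± values are standard errors, and CPM values include 0.5 read. The scripts were tested on simulated data. Total counts of 25881295 to 63547098 set the precision. Named were the 10 members, up to 4 called genes of the pathway lists per comparison by smallest FDR, and the 5 genes most correlated with each of the class I and interferon means. Some further genes, including those closest to single members, were named after their values were seen. Members and lists were chosen with earlier results of these data known. Alternatives were DESeq2 1.42.0, the quasi-likelihood test of edgeR, unweighted voom, no filter, RLE factors, only the groups compared (for KO against WT within a group), age as a covariate, only mice of Cnih3 breeding, only mice of 14 weeks and over, and each mouse left out. Leaving out the 13 libraries above 500 CPM of choroid plexus markers, or the 3 of lowest weight, was decided with the data in view.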

Additional observations from a re-analysis of the deposited data

Results flagged for a closer look

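A single mouse stood far from the rest of its group, by Dixon's test on log2 CPM, in 5 of the 100 combinations of member and group, and chance alone flags about 1 in 20 groups. H2-D1 was 24.3 CPM in WT diestrus mouse 3 and 33 to 38.9 CPM in the other mice of that group. Tap1 was 0.655 CPM in WT estrus mouse 2 and 1.7 to 2.21 CPM in the others. Psmb8 was 4.01 CPM in WT metestrus mouse 2, above the 2.23 to 2.36 CPM of the others. Isg15 was 0.333 CPM in WT estrus mouse 5, from 9 counts, where the others had 1.18 to 2.99 CPM. Bst2 was 2.72 CPM in KO metestrus mouse 3 and 3.8 to 4.23 CPM in the others. None of these 5 genes was called between KO and WT in its group, and H2-D1 in WT diestrus against proestrus lost its call without WT diestrus mouse 3 (-0.47, FDR = 0.214).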

How the results depend on the processing

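No paired analysis was possible because the labels give no number stated to pair mice between groups. Some mouse names share a leading number across groups, but its meaning is not stated and it was not used. The counts of members called between KO and WT were 0 under every setting run but 3, which gave 1 each: only mice of Cnih3 breeding over the 5 groups and over the 4 stages (B2m), and males without the choroid plexus libraries (Irf7). The 1 member called between WT stages became 0 in edgeR, DESeq2, unweighted voom, the unfiltered fit and without the choroid plexus libraries, 2 in mice of Cnih3 breeding (Irf7 and Bst2 in diestrus against WT proestrus mouse 5 alone, with H2-D1 lost), and 3 in mice of 14 weeks and over and without the 3 libraries of lowest weight. The 4 called between KO stages became 1 in edgeR, DESeq2, unweighted voom and the unfiltered fit and 0 in mice of 14 weeks and over. The 2 called between KO females and males became 0 in edgeR, DESeq2, unweighted voom, with age in the model and in mice of 14 weeks and over, and 1 in the unfiltered fit and with summed transcript counts, which lack 1 transcript of Tap1. With 1 mouse left out these counts ranged from 0 to 3 in WT stages, 3 to 5 in KO stages and 0 to 3 for KO females against males. The share of all genes called under these settings is given only for the 2 averages of KO against WT in mice of Cnih3 breeding. B2m in KO against WT proestrus changed sign to -0.58 in mice of Cnih3 breeding, where WT proestrus mouse 5 is the only WT mouse, and to -0.05 without the choroid plexus libraries. The causes were not tested. Of 280 values of a member in a comparison, between 4 (RLE factors) and 68 (Cnih3 breeding) changed sign, none of them called. Counting error limits Isg15 and Tap1 most.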
